A study of Mus musculus with 12 samples.

Results

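The expression of 32 mitosis and spindle genes was followed in the RNA of circulating blood. Each gene of the list acts in the entry into mitosis, in the alignment and separation of the chromosomes or in the final division of the cell. A gene was measured through the probe sets, groups of short oligonucleotides on the array, whose annotation names that gene alone. This held for 31 of the 32 genes, with 64 probe sets between them, out of 18194 genes and 45101 probe sets on the array. Ccnb1, the partner of the mitotic kinase, had no such probe set and was not analysed here. Each gene is given through its brightest probe set, and its other probe sets serve as a check.

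Cells copy their DNA in S phase and divide it in mitosis. Most of the genes described here are transcribed mainly in the G2 and M phases of dividing cells, while Ccna2 and Esco2 also act in S phase. Rising cyclins activate the kinase Cdk1, microtubules of the spindle capture the chromosomes at their kinetochores, and the spindle checkpoint holds back anaphase until every chromosome is attached. In the mouse, erythroblasts of the marrow and spleen divide several times before they expel the nucleus, while the reticulocytes and red cells that circulate have no nucleus and do not divide, and most circulating leukocytes are at rest.

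Whole blood RNA of 12 mice was hybridized to 12 Affymetrix Mouse 430 2.0 arrays, with 1 mouse per array. All mice were wild type C57Bl/10 aged 3 months and fell into 3 groups of 4. Chronic hypoxia (CH) mice spent 14 days in a chamber in which oxygen was lowered stepwise between 21% and 8%, recovery (REC) mice had the same 14 days of CH and then 14 days at normal oxygen, and normoxia (NX) mice breathed 21% oxygen for 14 days. The RNA was amplified from a poly(T) primer. Each value is a relative hybridization signal and not a number of molecules. The deposited signals are on a linear scale, and log2(signal + 16) was fitted with limma, which understates the fold change of a dim transcript. Calls required both a 2-fold change or more and an adjusted p (Benjamini-Hochberg, across the whole array) of less than 0.05. CH and REC were compared with the same 4 NX arrays, so that these 2 comparisons are not independent.

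Per array, the median signal ranged between 32.9 and 59.9, although all 12 arrays shared the same trimmed mean. The hybridization controls, bacterial transcripts that are added to each sample, averaged 14.3 ± 0.25 on the log2 scale in CH, 11.9 ± 0.23 in REC and 12.7 ± 0.44 in NX (SD, n = 4 each). When the arrays were scaled on these controls, the median log2 change of all genes moved to -0.84 in CH minus NX, against 0.05 as deposited, and to 0.57 in REC minus NX, against -0.02. As a sign of RNA integrity, the signal at the 3′ end of the actin control was divided by that at its 5′ end, and the result averaged 2.00 ± 0.094 in CH, 1.61 ± 0.092 in REC and 1.71 ± 0.10 in NX (SD, n = 4 each), and its part in the results was not tested. Directions below are therefore relative to the array as a whole, and the genes that turned under this scaling are named with each comparison. Of the defining markers of blood, 10 of 11 erythroid genes, among them Slc4a1, Alas2 and Gata1, were detected well above the lowest signals and differed strongly between the groups, and markers of lymphocytes, neutrophils, monocytes and platelets were present.

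In CH, 11 of the 31 mitotic genes (35.5%) were called higher and 1 was called lower than in NX, while 9.08% of all genes were called higher and 19.5% lower. The 11 genes were Mki67, Esco2, Ccnb2, Ccna2, Nusap1, Tpx2, Birc5, Aurka, Anln, Cenpf and Bub1. The median log2 change of the 31 genes was 0.74, against 0.05 for all genes, and it was -0.45 against -0.84 with the hybridization control scaling. Under that scaling 6 genes were called higher and 6 lower, while 273 of all 18194 genes were called higher and 8174 lower. In the same setting 13 mitotic genes that had pointed upward turned downward. These were Bub1, at -0.16, and 12 genes that had not been called, Bub1b, Cdc20, Cdk1, Cenpe, Ect2, Kif11, Kif2c, Nuf2, Plk1, Racgap1, Top2a and Ttk, at -0.97 to -0.08. For 11 mitotic genes the 4 CH arrays all lay above the 4 NX arrays, and for 0 they all lay below, compared with 11% and 21.4% of all genes. The size of the change was uneven, since 6 genes lay between 2.86 and 3.62 on the log2 scale and the median of the whole list stayed below 1. In whole blood, fewer cells of a type and less RNA per cell cannot be told apart.

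The erythroid markers moved with this result. Of the 11 measured, 10 were called higher in CH than in NX and 0 lower, with a median log2 change of 3.43, and their summed signal lay between 110754 and 176680 in CH, against 21959 to 33416 in NX. After REC the sum lay between 5449 and 16073, with 5 markers called lower than in NX and a median log2 change of -1.13. Of the neutrophil precursor markers, 0 of 9 were called in either comparison, with median log2 changes of 0.55 in CH minus NX and 0.17 in REC minus NX. Their summed signal lay between 751 and 2186 in CH, against 400 to 1216 in NX. Elane, Mpo and Prtn3, which define the earliest of these cells, stayed at signals of 44.9 or less on every array. Of the 6 progenitor markers measured, 1 was called higher in CH (Car1, a carbonic anhydrase that red cells also make) and 2 lower (Myb and Flt3), with a median log2 change of -0.38. Kit, the receptor of early precursors, reached at most 19.7 in CH and 14.7 in NX. The B cell markers fell in CH, with 7 of 8 called lower, as did the T cell markers, with 9 of 10. The part of any of these cell types in the mitotic result was not tested.

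**Figure D1:**
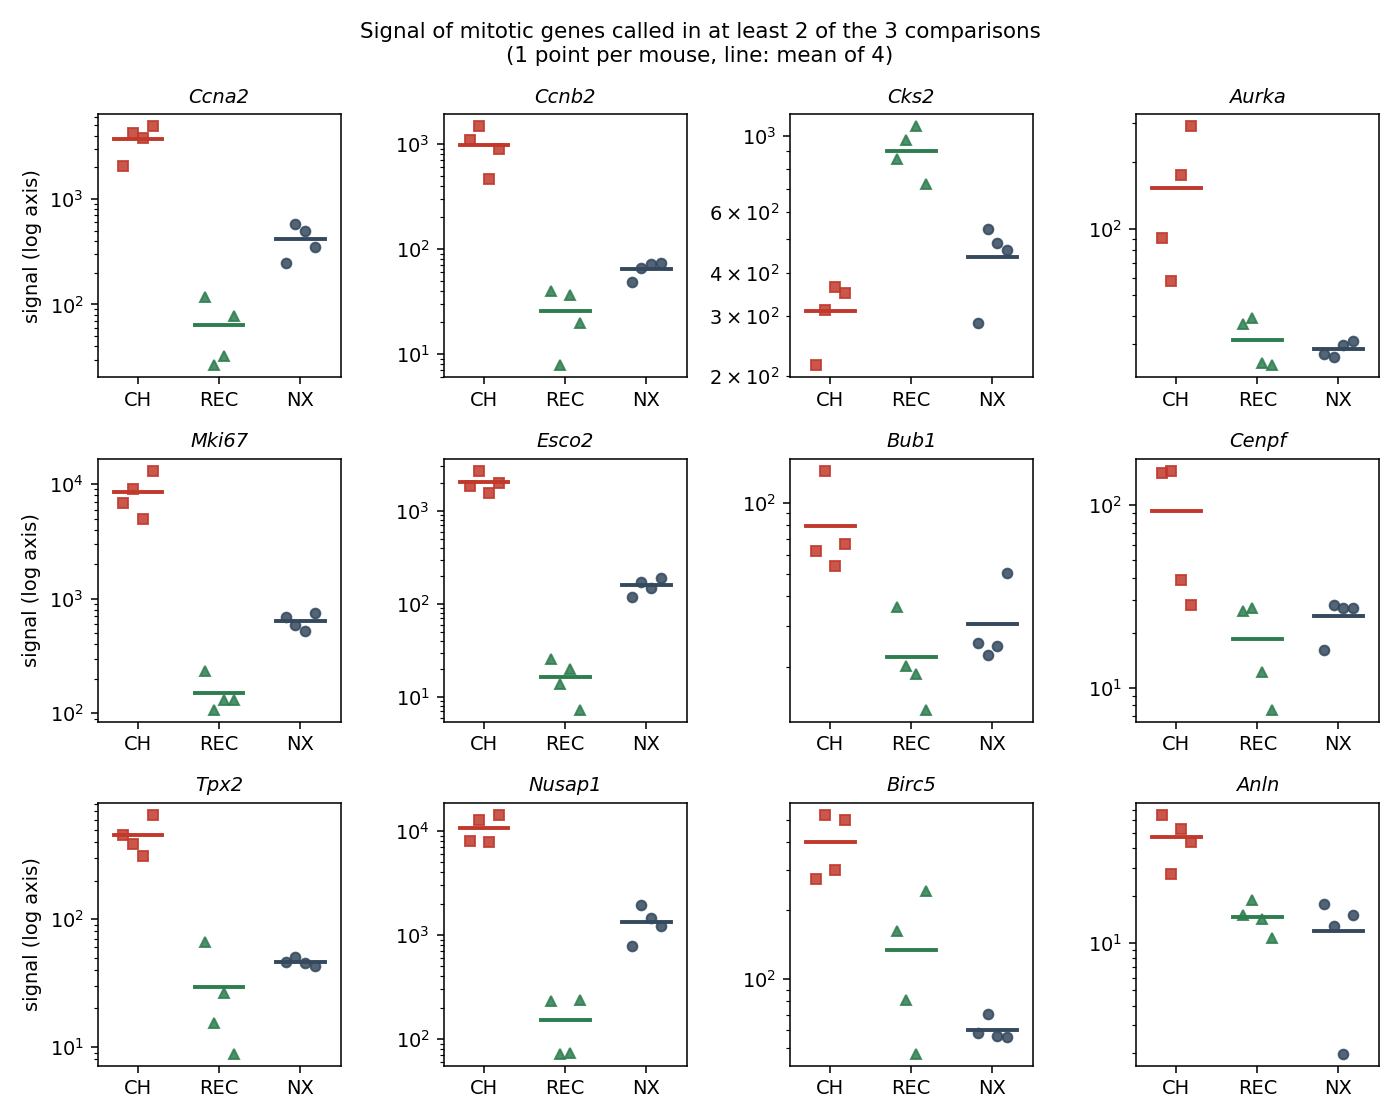
Signal on a log axis of the 12 mitotic genes called in at least 2 of the 3 comparisons, with 1 point per mouse and a line at the mean of 4 mice in CH, REC and NX. Mki67, Esco2, Ccna2 and Nusap1 form 3 separate levels with CH at the top and REC at the bottom, while Cks2 is highest in REC; with the hybridization control scaling, the CH points of Aurka, Birc5, Bub1, Cenpf and Anln are no longer called above NX.

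Among the cyclins and their kinase, Ccna2, which encodes the cyclin A2 of S phase and early mitosis, had signals of 2056, 4249, 3785 and 4886 in CH, against 249, 579.8, 497 and 353 in NX. Each CH array exceeded each NX array. The log2 change was 3.11 (SE 0.40), with a limma adjusted p of 7.16e-05. Ccnb2, a B-type cyclin that drives entry into mitosis with Cdk1, had signals of 1094, 1478, 461 and 902 in CH, against 48.3, 65.8, 71.5 and 73.2 in NX. The lowest CH array was well above the highest NX array. The log2 change was 3.53 (SE 0.35, limma adjusted p = 1.01e-05). Cdk1, the kinase itself, averaged 73.6 ± 11.3 in CH and 36.6 ± 16.9 in NX (SD, n = 4 each). Its log2 change of 0.82 (limma adjusted p = 0.0347) was under the 2-fold minimum, and it reached 1.00 and was called when NX replicate 3 was left out. Cks2, a small subunit that binds the kinase, had signals of 215, 312, 364 and 349 in CH, against 285, 537, 487 and 464 in NX. The 2 groups overlapped, and the log2 change of -0.48 was not called (limma adjusted p = 0.193).

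Of the 3 mitotic kinases other than Cdk1, Aurka, the Aurora kinase of the spindle poles, was called. Its signals were 90.7, 57.7, 175 and 290.1 in CH, against 27.1, 26.3, 29.7 and 30.9 in NX. The CH arrays spread over a wide range, all of it above NX. The log2 change was 1.72 (SE 0.36, limma adjusted p = 0.00237), and it was no longer called at 0.96 for the mean of its probe sets or at 0.42 with the hybridization control scaling. Ttk, a checkpoint kinase at the kinetochore, ranged between 55.1 and 432 in CH and between 48.7 and 130.3 in NX, and its log2 change of 0.92 was not called. It became 1.38 (limma adjusted p = 0.0121) without CH replicate 4 and was also called with quantile normalization (1.23). Plk1, the Polo-like kinase that acts at several steps of mitosis, was dim, with signals of 7.70 to 51.4 in CH and of 1.21 to 15.5 in NX, and was not called.

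The group of chromosome structure, cohesion and proliferation genes held the largest rise of the list. Mki67 encodes Ki-67, the protein by which dividing cells are commonly counted. It had signals of 6866, 9099.6, 4932 and 13120.0 in CH, against 698, 593, 520.3 and 758 in NX. The CH arrays lay far above the NX arrays, at a log2 change of 3.62 (SE 0.31, limma adjusted p = 3.69e-06), which is 12.3-fold. Mki67 ranked 62 among the 18194 genes from the largest increase. Esco2, an acetyltransferase that ties sister chromatids together during replication, had signals of 1854, 2707, 1565 and 1968 in CH, against 118, 173, 149 and 192 in NX. These groups were narrow and far apart, and the log2 change was 3.54 (SE 0.26, limma adjusted p = 1.5e-06), with rank 65. Top2a, the topoisomerase that untangles chromosomes, ranged between 93.5 and 394 in CH and between 60.6 and 321 in NX. Its change of 0.79 was not called, and without NX replicate 1, the array with the 321, it was 1.26 (limma adjusted p = 0.0359).

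Among the spindle checkpoint genes, Bub1, a kinase that recruits the checkpoint to kinetochores, had signals of 62.6, 137, 53.7 and 66.4 in CH, against 25.2, 22.6, 24.6 and 50.1 in NX. The 4 CH arrays lay above all NX arrays, by a small margin over NX replicate 4. The log2 change of 1.00 (SE 0.30, limma adjusted p = 0.0207) was at the 2-fold minimum, and the call was lost when CH replicate 2 or NX replicate 1, 2 or 3 was left out, with changes of 0.75 to 0.96, and also with median centring (0.85) and a pseudocount of 64 (0.58). Bub1b, which encodes the checkpoint protein BubR1, averaged 66.0 ± 23.0 in CH and 35.0 ± 19.8 in NX (SD, n = 4 each) and was not called. Mad2l1, the inhibitor of Cdc20, had signals of 93.6, 133, 77.0 and 12 in CH, against 104, 89.5, 145 and 90.1 in NX. These overlapped, with a log2 change of -0.59 that was not called.

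Of the 5 kinetochore and centromere genes, 1 was called in CH. Cenpf, a large protein of the outer kinetochore, had signals of 149, 154, 38.6 and 28.5 in CH, against 16.1, 28.3, 27.4 and 27.4 in NX. CH replicates 1 and 2 were far above NX and the other two just above it. The log2 change was 1.17 (SE 0.41, limma adjusted p = 0.0467), and leaving out any 1 of 10 of the 12 arrays took it past the threshold, to adjusted p values of 0.0525 to 0.146. Only without CH replicate 3 or CH replicate 4, of the 12 arrays, was the call kept. It was lost as well with quantile normalization, the hybridization control scaling, a pseudocount of 1 or 64, the mean of the probe sets and a fit of the 8 CH and NX arrays alone. Cenpa, the histone H3 variant that marks the centromere, had signals of 206, 198, 195 and 182 in CH, against 237, 201, 219 and 147 in NX, with a log2 change of -0.02 (SE 0.22). Cenpe, a kinetochore motor, ranged between 2.75 and 146 in CH and between 30.2 and 122 in NX. Ndc80 and Nuf2, which together hold the microtubule at the kinetochore, had log2 changes of -0.31 and 0.26 and were not called.

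The spindle motors and assembly factors included the brightest gene of the list. Nusap1, a microtubule-bundling protein of the spindle, had signals of 8032, 12942, 7789.7 and 14382 in CH, against 777, 1941, 1453 and 1213 in NX. All CH arrays were above all NX arrays, with a log2 change of 3.01 (SE 0.41, limma adjusted p = 0.00011). Tpx2, which activates Aurora A and builds the spindle, had signals of 458, 384, 309 and 654 in CH, against 46.3, 50.5, 45.4 and 43.1 in NX. The NX arrays were close together and far below CH, and the log2 change was 2.86 (SE 0.34, limma adjusted p = 3.73e-05). Kif11, the motor that pushes the spindle poles apart, ranged between 124 and 441 in CH and between 84.7 and 193 in NX. It was not called (log2 change 0.94, limma adjusted p = 0.0707), and was called without CH replicate 3, CH replicate 4 or NX replicate 1, at changes of 1.14 to 1.23, and with quantile normalization. Kif2c, a motor that takes microtubules apart, and Prc1, which crosslinks them in anaphase, had log2 changes of 0.52 and -0.33 and were not called.

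Birc5, which encodes survivin of the chromosome passenger complex, had signals of 275, 525, 301 and 499 in CH, against 57.9, 70.1, 56.4 and 56.0 in NX. Every CH array was above every NX array, and the log2 change was 2.40 (SE 0.38, limma adjusted p = 0.000364). Aurkb, the kinase of the same complex, averaged 28.9 ± 19.8 in CH and 31.4 ± 9.99 in NX (SD, n = 4 each), with a log2 change of -0.18 (SE 0.35). The 2 members of the passenger complex had unlike changes in the same RNA, and the difference between them was not tested. Cdc20, the activator of the anaphase-promoting complex, averaged 71.9 ± 27.9 in CH and 48.8 ± 8.69 in NX and was not called.

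Among the cytokinesis genes, Anln, a scaffold of the contractile ring, had signals of 65.2, 27.3, 53.1 and 43.7 in CH, against 17.7, 12.7, 1.98 and 15.0 in NX. The groups did not overlap, and the log2 change was 1.19 (SE 0.27, limma adjusted p = 0.0039). It fell below the 2-fold minimum, to 0.99, without NX replicate 3, which held the signal of 1.98, and was also not called with a pseudocount of 64 (0.55), the mean of its probe sets (0.71) or the hybridization control scaling (0.27). Kif23, a motor of the central spindle, had signals of 11.2, 12.4, 90.3 and 23.0 in CH, against 70.2, 112, 126 and 115 in NX. CH replicate 3 reached into the NX range and the other CH arrays lay below it. Its log2 change of -1.50 (SE 0.39, limma adjusted p = 0.0101) was the single lower call, and another probe set of Kif23 went the other way, at 1.31 (SE 0.28, limma adjusted p = 0.00286). The mean of the 3 probe sets of Kif23 changed by 0.26, so the direction of Kif23 is not settled here. Racgap1, its partner in the central spindle, and Ect2, the exchange factor that starts the furrow, had log2 changes of 0.27 and 0.39 and were not called, as was Kif20a, at -0.36.

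**Figure D2:**
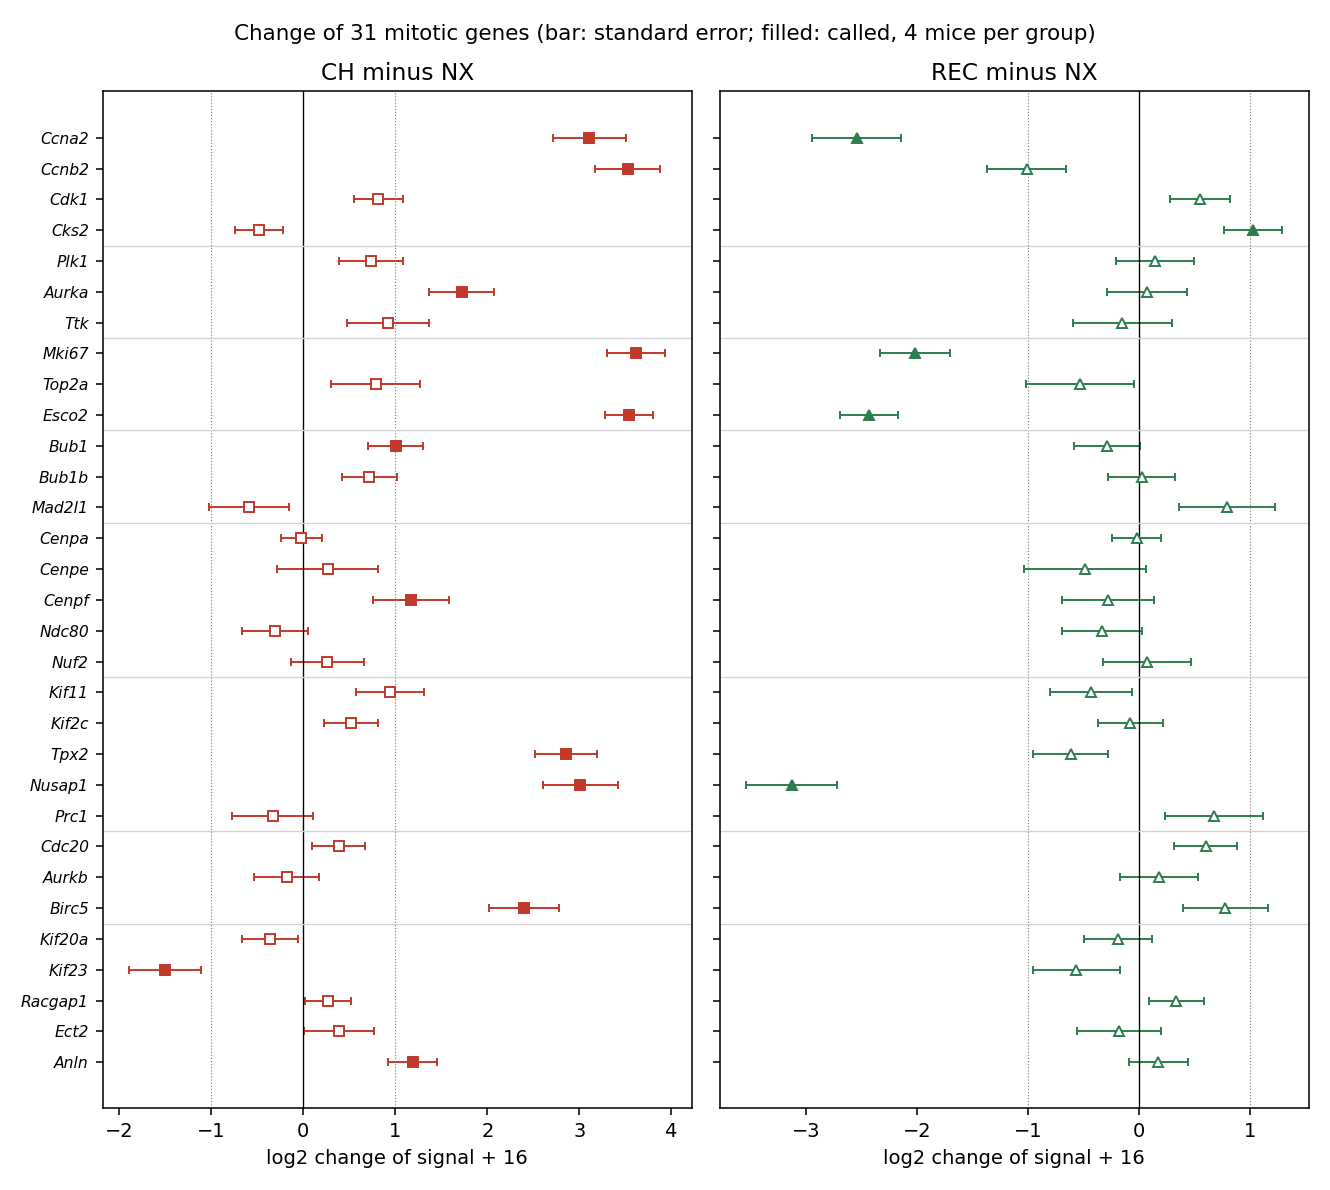
Change of log2(signal + 16) of each of the 31 genes in CH minus NX and in REC minus NX, grouped by role, with bars of 1 standard error, filled symbols for called genes and dotted lines at the 2-fold minimum. In CH 11 genes lie right of the line and Kif23 left of it, and in REC 4 lie left and Cks2 right; with the hybridization control scaling the median of the list is -0.45 in CH and 0.47 in REC.

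Higher calls in CH were found in bright and in dim genes, but those of the dim genes were less firm. Of the 9 genes with a mean NX signal under 32, 4 were called higher, of 12 between 32 and 100, 3 were, and of 10 at 100 or more, 4 were. The 4 under 32, Aurka, Bub1, Cenpf and Anln, all lost the call with the hybridization control scaling. The 6 genes called under every alternative, named below, had mean NX signals between 46.3 (Tpx2) and 1346 (Nusap1). Single arrays differed too. Of the 31 genes, 21, 22, 15 and 15 lay above all 4 NX arrays in CH replicates 1 to 4, and 4, 2, 6 and 6 lay below them all. The same counts over all genes were not made, so these have no share of all genes beside them. CH replicates 1 and 2, which had the highest median signals of their group (59.9 and 55.4, against 45.7 and 32.9), were also highest for Kif11, Top2a and Cenpf. CH replicate 4, with the lowest median signal of the group, was highest for Mki67, Nusap1, Ccna2, Tpx2 and Aurka. NX replicate 1 had a median signal of 57.1, against 34.5 to 37.5 in the other NX arrays. Among other genes, it was the highest NX array for Top2a, Ttk, Kif11 and Cenpe and the lowest for Ccna2, Ccnb2, Esco2 and Nusap1. The part of the difference in median signal in these genes was not tested. The 6 genes with the largest increase, Mki67, Esco2, Ccnb2, Ccna2, Nusap1 and Tpx2, were called higher under all 24 alternatives, the hybridization control scaling and each left-out array among them.

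**Figure D3:**
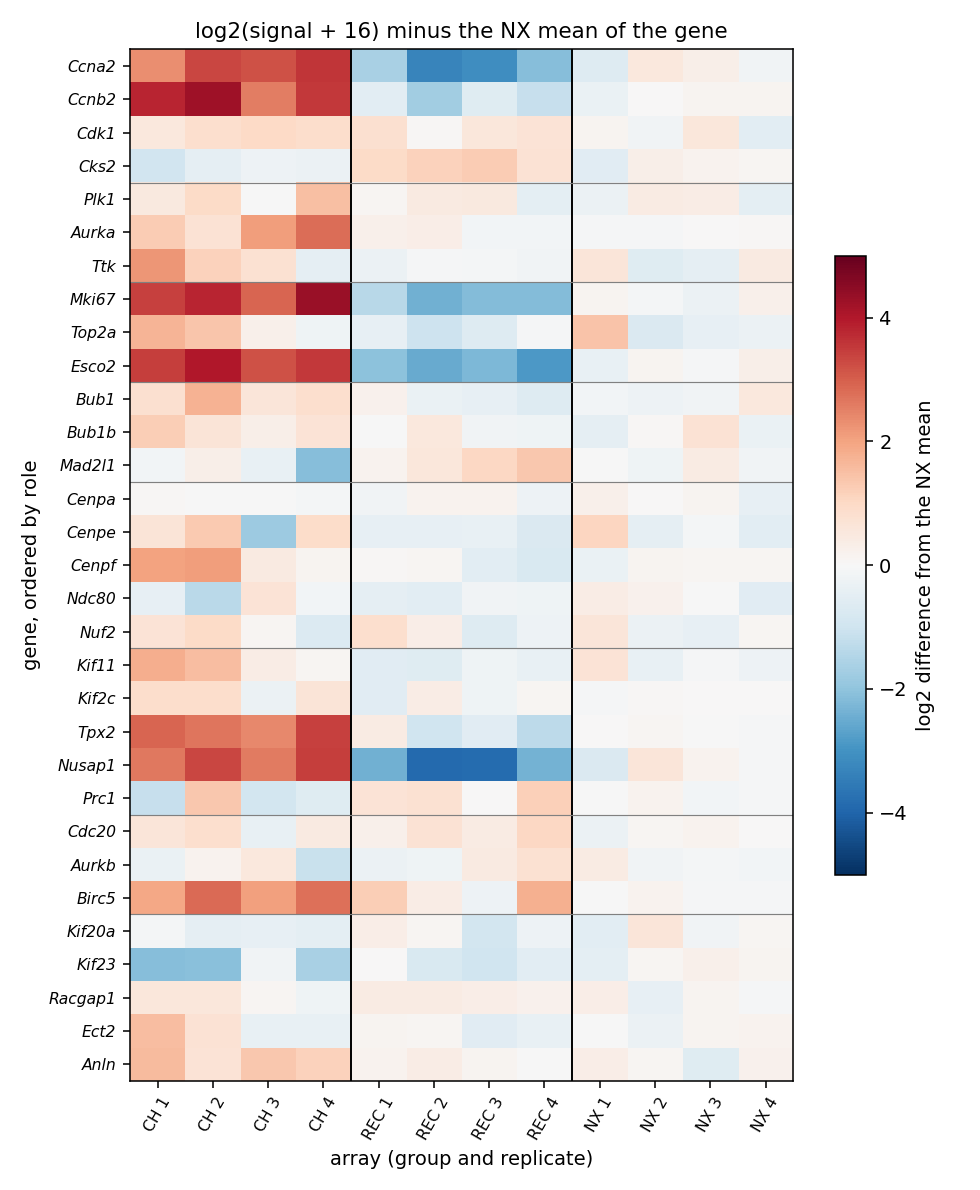
Difference of log2(signal + 16) from the NX mean of the same gene, for 31 genes in rows by role and 12 arrays in columns, red above and blue below the NX mean. The rows of Ccna2, Ccnb2, Mki67, Esco2, Tpx2, Nusap1 and Birc5 are red in all 4 CH arrays, and those of Ccna2, Mki67, Esco2 and Nusap1 are blue in all 4 REC arrays.

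After REC, 4 of the 31 genes were called lower and 1 higher than in NX, while 1.79% of all genes were called lower and 2.5% higher. The 4 lower genes, Nusap1, Ccna2, Esco2 and Mki67, were all among the 11 called higher in CH. The median of the 31 genes was -0.15, against -0.02 for all genes, and it was 0.01 against 0.14 with median centring and 0.47 against 0.57 with the hybridization control scaling. With the scaling on the controls 7 genes were called higher and 4 lower, while 4377 of all 18194 genes were called higher and 121 lower. The 7 higher calls are near the share of all genes. In that setting 12 genes that had not been called turned upward, at 0.10 to 0.75. They were Bub1, Cenpa, Cenpe, Cenpf, Ect2, Kif11, Kif20a, Kif23, Kif2c, Ndc80, Top2a and Ttk. For 5 genes the REC arrays all lay below the NX arrays and for 2 all above, compared with 8.88% and 12.6% of all genes. The 4 lower genes kept their call under each scaling and without any 1 array.

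Nusap1 had signals of 231, 71.6, 72.8 and 235 in REC, against 777, 1941, 1453 and 1213 in NX. The highest REC array was far below the lowest NX array. The log2 change was -3.13 (SE 0.41, limma adjusted p = 0.00102), the sixth largest decrease among 18194 genes (rank 6). Ccna2 had signals of 118, 26.4, 32.5 and 78.5 in REC, against 249, 579.8, 497 and 353 in NX. Again the groups did not overlap, and the log2 change was -2.54 (SE 0.40, limma adjusted p = 0.00298). Esco2 had signals of 25.3, 13.7, 19.8 and 7.33 in REC, against 118, 173, 149 and 192 in NX. The REC signals were near or below the 16 added before the logarithm. The log2 change was -2.43 (SE 0.26, limma adjusted p = 0.000443). Mki67 had signals of 235, 108, 130.0 and 131 in REC, against 698, 593, 520.3 and 758 in NX. It remained clearly measured in REC, and its log2 change was -2.02 (SE 0.31, limma adjusted p = 0.00283).

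Not all genes that rose in CH were lower after REC. Ccnb2 had signals of 39.6, 7.78, 36.6 and 19.7 in REC, against 48.3, 65.8, 71.5 and 73.2 in NX. All REC arrays were lower, but the log2 change of -1.01 was not called (limma adjusted p = 0.127). It was called in a fit of the 8 REC and NX arrays alone (limma adjusted p = 0.0365). Tpx2 had signals of 66.7, 15.5, 26.2 and 8.83 in REC, against 46.3, 50.5, 45.4 and 43.1 in NX. REC replicate 1 was above all NX arrays and the other three below them, with a log2 change of -0.62 that was not called. Birc5, with 163, 81.5, 47.1 and 243 in REC against 57.9, 70.1, 56.4 and 56.0 in NX, pointed upward by 0.78 and was not called. For Aurka, Bub1, Cenpf and Anln the log2 changes in REC minus NX lay between -0.29 and 0.17, and none was called. Aurka had signals of 36.9, 39.6, 24.6 and 24.0 in REC, Bub1 had 36.2, 20.2, 18.7 and 13.2, and Cenpf had 26.4, 27.3, 12.2 and 7.59. Those of Anln were 15.0, 18.9, 14.2 and 10.7, so that each of these 4 genes overlapped with its NX arrays.

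Cks2 differed from the other genes. Its signals were 856, 970.1, 1065 and 723 in REC, against 285, 537, 487 and 464 in NX. All 4 REC arrays lay above all NX arrays, and the log2 change was 1.02 (SE 0.26, limma adjusted p = 0.0372). This call rested on all 8 arrays, since leaving out any 1 REC or NX array moved the adjusted p to between 0.0509 and 0.125, and it was also lost with quantile normalization, median centring and a pseudocount of 1 or 64. The second probe set of Cks2 gave a log2 change of 1.01 (SE 0.25, limma adjusted p = 0.029). Mad2l1 had signals of 122, 166, 235 and 289.7 in REC, against 104, 89.5, 145 and 90.1 in NX, an overlap of the groups, and its change of 0.79 was not called. The other genes not named for REC so far were not called either, with log2 changes between -0.57 for Kif23 and 0.67 for Prc1.

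REC and CH mice differ in the 14 days that followed the same hypoxia. In REC, 13 of the 31 genes were called lower and 2 higher than in CH, while 12.3% of all genes were called lower and 23.3% higher. The median of the list was -0.69, against -0.07 for all genes, and it was 0.91 against 1.50 with the hybridization control scaling. Under that scaling 6 genes were called lower and 13 higher, while 296 of all 18194 genes were called lower and 10986 higher. The markers of blood cells differed as well. Of the erythroid markers 10 of 11 were called lower in REC than in CH, while 10 of 10 T cell, 6 of 7 NK cell, 6 of 8 B cell and 4 of 7 plasma cell markers were called higher. Of the 7 NK cell markers, 4 were called higher in REC minus NX too. The part of these cell types in the result was not tested. For 12 genes the REC arrays all lay below the CH arrays and for 1 all above, compared with 15.3% and 24.8% of all genes. Of the 13 lower genes, 11 were those called higher in CH than in NX, and Kif11 and Top2a were the others. Both comparisons use the same 4 CH arrays, so they are not independent and part of this overlap is built in.

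The largest of these differences were a log2 change of -6.13 for Nusap1 (SE 0.41, limma adjusted p = 7.57e-08), which is 70.2-fold lower in REC, and of -5.97 for Esco2. Ccna2 and Mki67 had -5.65 and -5.64, Ccnb2 had -4.54 and Tpx2 had -3.47. In these 6 genes no REC array reached the lowest CH array. The other 7 lower genes had log2 changes between -1.65 for Aurka and -1.02 for Anln, and with the hybridization control scaling all 7 turned upward, to 0.11 to 0.76, with none called. So did 10 genes that had not been called, Bub1b, Cdk1, Cenpa, Cenpe, Ect2, Kif2c, Ndc80, Nuf2, Plk1 and Ttk, at 0.55 to 2.20. The change of Kif11 was -1.38 (SE 0.37, limma adjusted p = 0.00935), with REC signals of 70.7 to 95.8 and CH signals of 124 to 441. Top2a had a change of -1.32 (SE 0.48) at an adjusted p of 0.0457 from limma, and the call was lost when any 1 of 8 arrays was left out. These were CH replicates 1 and 2, all 4 REC replicates and NX replicates 3 and 4, with adjusted p values of 0.0529 to 0.134. Anln lost its call without CH replicate 1, CH replicate 3 or REC replicate 4, at changes of -0.96 to -0.88, and with quantile normalization, median centring, a pseudocount of 64 or the mean of its probe sets. The mean of the probe sets also ended the calls of Aurka (-0.81) and Cenpf (-0.92), a pseudocount of 64 those of Bub1, Cenpf and Top2a, a pseudocount of 1 that of Top2a and median centring that of Bub1 (-0.98).

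The 2 genes higher in REC than in CH were Cks2 and Mad2l1. Cks2 changed by 1.51 (SE 0.26, limma adjusted p = 0.000449), with no overlap of the signals given above. Mad2l1 changed by 1.37 (SE 0.43, limma adjusted p = 0.023), with REC replicate 1 below CH replicate 2. The call of Mad2l1 was lost without CH replicate 4, which held the signal of 12, where the change was 0.86, and without REC replicate 3 or 4, where it was 1.29 and 1.19, and also with a pseudocount of 1 or 64. Another 4 genes, not called with all arrays, were called when 1 CH array was left out. Without CH replicate 3, the change was -1.44 for Cenpe and 1.38 for Kif23, against -0.75 and 0.93 with it. Without CH replicate 2 that of Prc1 was 1.56, against 1.01, and without CH replicate 4 that of Ttk was -1.53, against -1.07. Kif23 and Prc1 were also called with median centring, and Ttk with quantile normalization and with the mean of its probe sets.

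Other probe sets of the same genes were compared as a check. Of the 64 probe sets, 17 had a higher call in CH minus NX and 2 a lower one, against 8.04% and 13.9% of all probe sets. In REC minus NX, 2 had a higher call and 4 a lower one, against 1.62% and 2.74%. In REC minus CH, these counts were 4 and 20, against 15.2% and 12.6%. The second probe sets of Esco2, Ccna2 and Nusap1 had log2 changes of 3.02, 2.07 and 1.93 in CH minus NX, all called. In REC minus NX they had -0.83, -0.80 and -0.74, and none of these was called, although each brightest probe set was. Another probe set of Bub1 was called as well, at 1.14, and 1 of Top2a was called at 1.08, although its brightest was not. The other 3 probe sets of Tpx2 gave 0.59, 0.78 and 0.32 and were not called, so the increase of Tpx2 rests on 1 of 4 probe sets, as that of Aurka (0.20 for the other) and that of Anln (0.22 for the other) do on 1 of 2 and that of Cenpf (0.47 and 0.21 for the others) on 1 of 3. For Racgap1, whose brightest probe set was not called, another changed by -1.36 (limma adjusted p = 0.0176). Probe sets of a gene can cover different transcript ends, and which of them differ here was not tested.

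**Figure D4:**
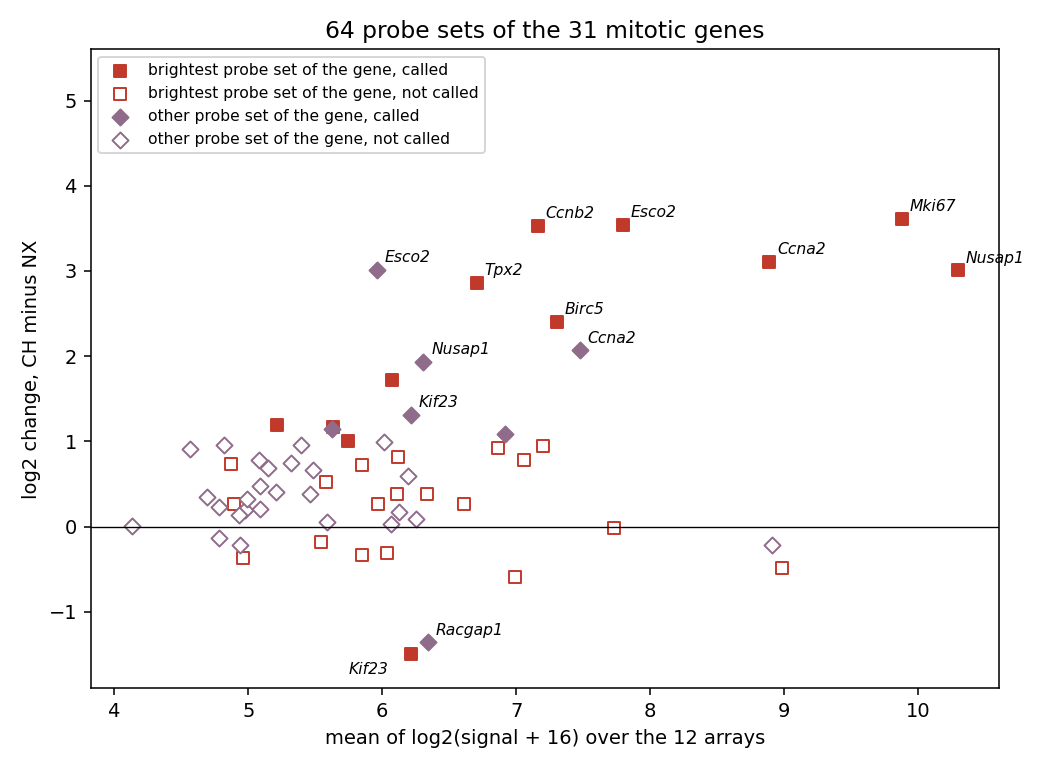
Change of log2(signal + 16) in CH minus NX against the mean of log2(signal + 16) over the 12 arrays, for the 64 probe sets of the 31 genes, squares for the brightest probe set of a gene and diamonds for the others, filled where called. A high CH signal also raises the mean on the x axis, so the axes are not independent, and the probe sets of Kif23 lie on both sides of 0. With the hybridization control scaling 6 of the 31 genes are called higher and 6 lower, against 273 and 8174 of all 18194 genes.

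The starts of these genes were compared because genes of late cell cycle share sequence elements there. The DREAM and MuvB complexes bind the cell cycle homology region (CHR), often with CCAAT boxes upstream, which are bound by NF-Y. Promoters of 300 bases, with 250 before and 50 after the start, were taken from RefSeq (GRCm38.p6) and matched for 26 of the 31 genes with 28 promoters. The letters TTTGAA or TTTAAA, searched on both strands, occurred in 21 of the 26 genes (80.8%) and in 27.6% of all 32851 promoters. CCAAT, on both strands, occurred in 19 of 26 (73.1%) and in 37.4% of all promoters. GGCGGGAA or GGCGCGAA, letters of an E2F site, occurred in 0 of 28 promoters and in 2.70% of all. TTTGAA or TTTAAA was found in 6 of the 8 matched genes that were called higher in CH and in 15 of the 18 that were not, and CCAAT in 5 of 8 and 14 of 18. Ccna2, Esco2 and Tpx2, which were among the largest increases in CH, had no matched promoter and are missing from these counts. A match of letters does not show that a factor binds there.

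The promoters of 4 genes called higher in CH, Mki67, Ccnb2, Aurka and Nusap1, and of 2 not called, Cdk1 and Cenpa, are shown 5′ to 3′ on the strand of the gene, so that genes with and without the change can be read side by side. Capitals mark TTTGAA or TTTAAA and also CCAAT on either strand, the reverse of CCAAT being ATTGG.
Mki67 (chr7:135716330-135716629, minus strand): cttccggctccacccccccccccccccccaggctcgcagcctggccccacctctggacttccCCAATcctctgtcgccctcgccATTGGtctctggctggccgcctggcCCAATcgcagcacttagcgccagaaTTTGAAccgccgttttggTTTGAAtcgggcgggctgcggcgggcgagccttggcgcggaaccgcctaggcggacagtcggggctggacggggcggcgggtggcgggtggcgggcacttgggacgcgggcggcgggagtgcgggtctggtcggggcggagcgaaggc
Ccnb2 (chr9:70421505-70421804, minus strand): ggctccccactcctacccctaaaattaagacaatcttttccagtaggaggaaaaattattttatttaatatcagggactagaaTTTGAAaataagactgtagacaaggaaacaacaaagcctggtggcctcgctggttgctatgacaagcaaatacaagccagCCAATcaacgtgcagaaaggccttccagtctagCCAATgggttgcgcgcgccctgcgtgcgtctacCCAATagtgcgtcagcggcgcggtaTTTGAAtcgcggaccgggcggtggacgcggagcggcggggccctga
Aurka (chr2:172370521-172370820, minus strand): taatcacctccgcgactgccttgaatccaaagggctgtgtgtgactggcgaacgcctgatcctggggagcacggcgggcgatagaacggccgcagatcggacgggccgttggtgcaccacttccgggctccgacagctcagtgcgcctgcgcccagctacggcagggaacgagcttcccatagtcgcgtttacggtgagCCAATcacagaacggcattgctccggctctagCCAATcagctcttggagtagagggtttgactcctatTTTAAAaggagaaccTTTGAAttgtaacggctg
Nusap1 (chr2:119618048-119618347, plus strand): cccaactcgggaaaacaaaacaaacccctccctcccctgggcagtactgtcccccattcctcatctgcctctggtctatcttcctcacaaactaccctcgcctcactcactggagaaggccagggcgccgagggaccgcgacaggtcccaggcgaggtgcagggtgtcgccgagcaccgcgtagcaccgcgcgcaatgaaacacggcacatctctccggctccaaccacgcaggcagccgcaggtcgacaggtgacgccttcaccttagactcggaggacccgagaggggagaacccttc
Cdk1 (chr10:69352863-69353162, minus strand): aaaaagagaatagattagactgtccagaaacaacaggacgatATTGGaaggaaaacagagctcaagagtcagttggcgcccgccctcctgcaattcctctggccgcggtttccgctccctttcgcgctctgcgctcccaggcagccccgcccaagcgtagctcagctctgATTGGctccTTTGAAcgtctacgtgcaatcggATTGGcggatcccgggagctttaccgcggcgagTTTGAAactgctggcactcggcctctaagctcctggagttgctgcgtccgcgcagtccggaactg
Cenpa (chr5:30666636-30666935, plus strand): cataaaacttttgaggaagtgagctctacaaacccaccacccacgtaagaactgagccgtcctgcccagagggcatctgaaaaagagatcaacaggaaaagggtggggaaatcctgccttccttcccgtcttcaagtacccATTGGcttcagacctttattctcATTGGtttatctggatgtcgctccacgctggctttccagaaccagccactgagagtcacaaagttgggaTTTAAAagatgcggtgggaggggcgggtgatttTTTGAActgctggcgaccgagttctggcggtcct
The promoters of Cdk1 and Cenpa held both elements, as did those of Mki67, Ccnb2 and Aurka, and that of Nusap1, whose signal differed most between REC and CH, held neither in this window.

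Further mitosis genes outside the list of 32 and related lists were compared in the same fit. As deposited, their counts stand beside 9.08% of all genes called higher and 19.5% lower in CH minus NX, and 2.5% and 1.79% in REC minus NX. With the hybridization control scaling they stand beside 273 of all 18194 genes called higher and 8174 lower in CH minus NX. In REC minus NX these numbers are 4377 and 121. Of 72 further mitosis genes measured, 19 had a higher call and 2 a lower one in CH minus NX, with a median log2 change of 0.69. With the hybridization control scaling 4 were called higher and 11 lower, at a median of -0.36. The 4 largest increases were those of Ube2c, the ubiquitin-conjugating enzyme of the anaphase-promoting complex (3.43), Cdca3, a trigger of mitotic entry (3.36), Cenpq of the inner kinetochore (2.86) and Spc24 of the Ndc80 complex (2.71). In REC minus NX 3 were called lower and 1 higher, and with the hybridization control scaling 1 lower and 15 higher. The lower genes were Ube2c (-2.87), Pttg1, which encodes the separase inhibitor securin (-1.77), and Cdc25b, a phosphatase that activates Cdk1 (-1.60). Ube2c had signals of 14772, 22332, 16001 and 23326 in CH, 618, 89.0, 142 and 284 in REC and 868, 3051, 1955 and 1684 in NX, with no overlap between any 2 groups. Cks1b, the paralog of Cks2, was called higher in both comparisons, at 1.40 in CH and 1.43 in REC.

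The anaphase-promoting complex is the ubiquitin ligase that destroys mitotic cyclins, and it acts also outside mitosis. Of its 16 subunits and activators 3 were called higher and 5 lower in CH, with a median log2 change of -0.59. With the hybridization control scaling 1 was called higher and 13 lower in CH, and 9 instead of 2 higher in REC minus NX. Among all 18194 genes that scaling gave 273 higher and 8174 lower in CH, and 4377 higher in REC minus NX. Fzr1, the activator Cdh1 that keeps cells out of the cycle in G1, rose by 2.67 and Anapc13 by 2.29, while Anapc4 had -2.10 and Cdc16 -1.79. In REC minus NX 2 were called higher, Anapc11 by 1.16 and Anapc16 by 1.11. Of 19 cohesin and condensin genes 2 were called higher and 4 lower in CH, among them Ncapg of condensin I (1.52), Mau2 of the cohesin loader (1.29), Rad21 of the cohesin ring (-1.68) and Esco1, the paralog of Esco2 (-1.27). In REC minus NX, Nipbl, the other part of the loader, had -1.27 and Ncapg had -1.11, and both were called. The counts in CH are near the shares of all genes, and with the hybridization control scaling they were 0 higher and 13 lower, with 5 higher and 0 lower in REC minus NX.

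Of 34 genes of G1 and S entry 7 were called higher and 7 lower in CH, the lower ones at about the share of all genes. With the hybridization control scaling 3 were called higher and 20 lower in CH, and 9 higher and 2 lower in REC minus NX. All 18194 genes gave 273 and 8174 in CH with that scaling, and 4377 and 121 in REC minus NX. E2f2, an E2F transcription factor abundant in erythroid cells, rose by 2.94, Rb1, the retinoblastoma protein that restrains E2F, by 2.86, Cdkn2c, an inhibitor of Cdk4 and Cdk6, by 2.65, and Tfdp2, a partner of E2F, by 2.34. In REC minus NX E2f2 had -3.17, Tfdp2 -2.60 and Rb1 -1.40, and these were the 3 calls of that list. E2f2 had signals of 22797, 32413, 32403 and 49718 in CH, 884, 315, 319 and 502 in REC and 3715, 3993, 3481 and 6516 in NX. Of 39 DNA replication genes 2 were called higher and 11 lower in CH, with a median of -0.55. With the hybridization control scaling the counts were 0 and 28 in CH, and 20 instead of 2 were called higher in REC minus NX. Rrm2, a subunit of ribonucleotide reductase, rose by 2.06, whereas Cdt1, the licensing factor, had -2.38, Rfc1 of the clamp loader -2.09 and Orc2 of the origin complex -1.93. Mcm5 of the replicative helicase (1.25) and Gins4 of its GINS partner (1.02) were called higher in REC than in NX. Of 19 kinesins that carry cargo outside mitosis 2 were called higher and 4 lower in CH and 0 in REC minus NX by limma at the same thresholds. The CH counts are near the shares of all genes, and with the hybridization control scaling they were 0 and 11.

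**Figure D5:**
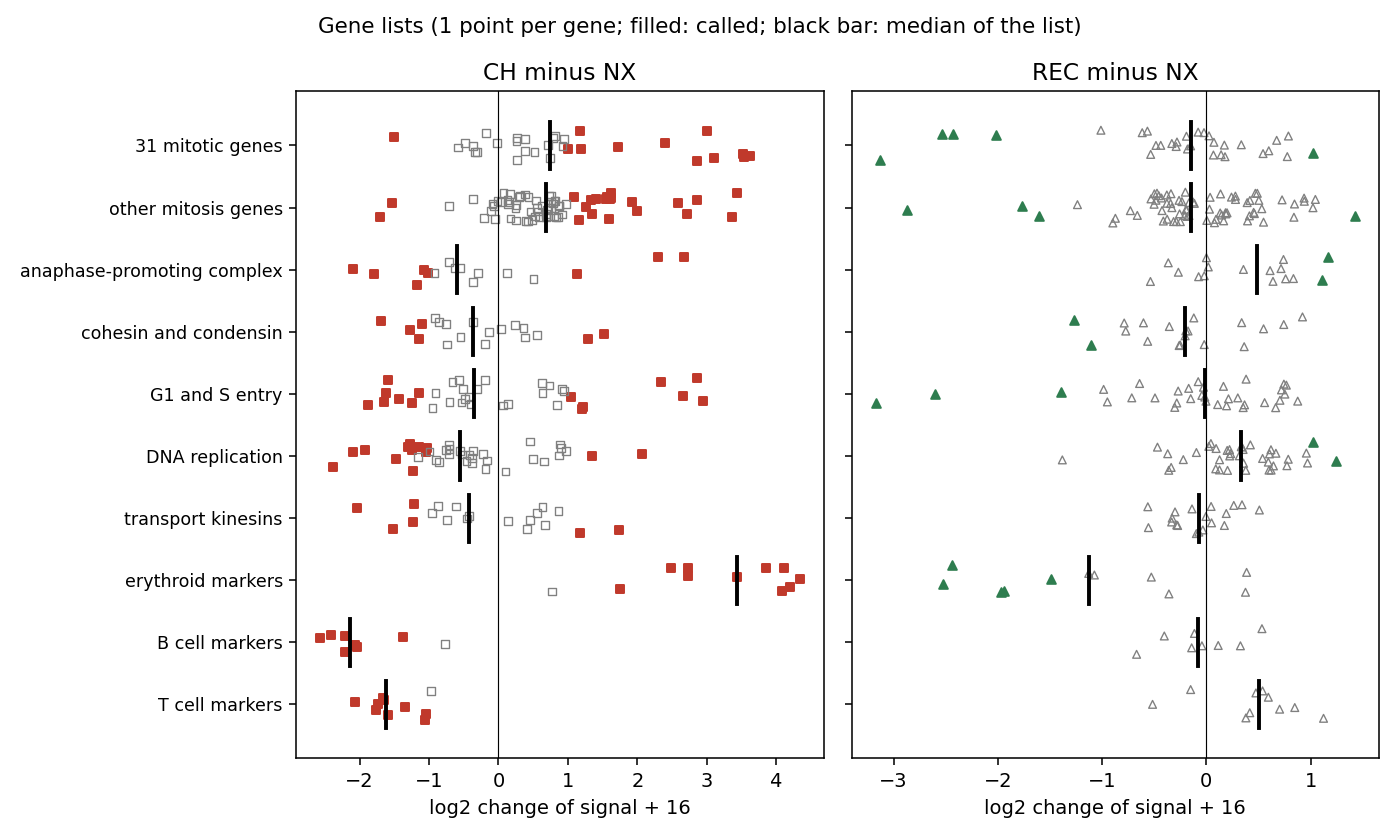
Change of log2(signal + 16) in CH minus NX and REC minus NX for the genes of the mitotic list, 6 related lists and 3 marker lists, with 1 point per gene, filled where called, and a bar at the median. The medians in CH are 0.74 for the 31 mitotic genes, 0.69 for other mitosis genes, -0.55 for DNA replication and 3.43 for erythroid markers; with the hybridization control scaling the mitotic medians turn to -0.45 and -0.36, while that of the erythroid markers is 1.97.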

How the data were processed

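Whole blood of 12 C57Bl/10 mice, 4 each in CH, REC and NX, was measured on Affymetrix Mouse 430 2.0 arrays. The authors amplified total RNA from a poly(T) primer, scanned the arrays on an Agilent scanner and deposited 1 signal intensity per probe set and array, on a linear scale with an equal trimmed mean on every array. The methods of the study state that probe set intensities were kept by the Affymetrix operating software and that scaling factors were looked at, without naming the summary method of the deposited intensities. They name GC-RMA for the analysis of the study itself, which gives log2 values, a scale that the deposited intensities are not on. The number of arrays limits the precision. Groups were taken from the sample titles and treatments, and another field, in which CH mice carry a normoxic name, was set aside.

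Gene names came from the platform annotation. Of 34958 probe sets that name 1 gene, 34754 had their symbol taken by gene number. Another 932 name several genes and 9211 name none, and these were not used for named genes. The brightest single-gene probe set stood for each of 18194 genes. The fit used lmFit and eBayes of limma 3.58.1 (R 4.3.3) on log2(signal + 16) over 45101 probe sets and 12 arrays, with a mean per group and 9 residual degrees of freedom. Tables and figures were made with Python 3.11.15, pandas 2.3.3 and matplotlib 3.10.9. The fit was tested on simulated data.

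The members and the other gene lists were chosen with earlier results of these data known, so that a list is described by its counts and median beside those of all genes. Signals of every array are given for members called in at least 2 comparisons, for the 2 largest changes called in each role and for the brightest gene of a role with no call, and the other genes are named by size of change among those called. Further genes named for a limit or an overlap were chosen after their values were seen. Alternatives were quantile normalization, median centring, scaling on 18 hybridization control probe sets, a pseudocount of 1 or 64, no dim probe sets, the mean of the probe sets of a gene, other thresholds, 8 arrays per fit, another variance prior, a replicate block and leaving out each array. Promoters of 250 bases before and 50 after the start are those of RefSeq (GRCm38.p6).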

Additional observations from a re-analysis of the deposited data

Results flagged for a closer look

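In 5 of 93 groups of 4 arrays, formed by 31 genes and 3 groups of mice, 1 array stood apart from the other 3 by a gap that Dixon's test puts beyond its 95% limit. Chance flags about 1 in 20 such groups, so this number is close to what chance gives. Bub1 had a signal of 50.1 in NX replicate 4, against 22.6 to 25.2 in the other NX arrays. Its call in CH minus NX was kept without that array. Birc5 had 70.1 in NX replicate 2, against 56.0 to 57.9, which is small beside the CH signals of 275 to 525. Cenpf had 16.1 in NX replicate 1, against 27.4 to 28.3, and Aurkb had 46.4 in the same array, against 25.7 to 27.3. Cenpe had 23.6 in REC replicate 4, against 32.8 to 34.4 in the other REC arrays, and was not called in any comparison.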

How the results depend on the processing

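With the hybridization control scaling, the median log2 change of the 31 genes moved to -0.45 in CH minus NX, 0.47 in REC minus NX and 0.91 in REC minus CH. In CH, 6 genes were then called higher than in NX (Ccna2, Ccnb2, Esco2, Mki67, Nusap1 and Tpx2) and 6 lower. In REC, 7 were called higher than in NX, and 13 higher and 6 lower than in CH. Among all 18194 genes, 273 were then called higher and 8174 lower in CH minus NX. These counts were 4377 and 121 in REC minus NX, and 10986 and 296 in REC minus CH. It turned the direction of 13 genes in CH minus NX, 12 in REC minus NX and 17 in REC minus CH, among them Bub1b in CH minus NX (-0.45) and Cenpe in REC minus CH (0.91). Of genes called with or without it, those that turned in REC minus CH were Anln (0.45), Aurka (0.25), Birc5 (0.60), Bub1 (0.39), Bub1b (1.06), Cdk1 (1.62), Cenpa (2.20), Cenpf (0.11), Ect2 (1.20), Kif11 (0.75), Ndc80 (1.66) and Top2a (0.76), and in CH minus NX Bub1 (-0.16). Higher calls made up 3.08% of all calls in CH minus NX with it, 94.9% in REC minus NX and 97.5% in REC minus CH, against 36.6%, 37.1% and 54.7% as deposited and 26.8%, 51.7% and 73.6% with median centring. Whether the controls were added in equal proportion to the RNA is not stated.

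Median centring gave 0 genes higher in REC than in NX and 4 higher in REC than in CH, and quantile normalization gave 0 higher in REC than in NX. A pseudocount of 1 or 64 gave 0 higher in REC than in NX and 1 higher in REC than in CH, and that of 64 gave 0 lower in CH than in NX. The mean of the probe sets gave 0 lower in CH, with Kif23 at 0.26. At an adjusted p under 0.001, the higher calls numbered 7 in CH minus NX, 0 in REC minus NX and 1 in REC minus CH, and the lower calls 0, 1 and 6 in the same order. Leaving out dim probe sets removed Kif20a, Nuf2 and Plk1 and gave no value for them.

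Leaving out each array in turn gave 9 to 13 higher calls and 1 lower call in CH minus NX, 0 to 1 higher calls and 4 lower calls in REC minus NX, and 1 to 3 higher and 11 to 14 lower calls in REC minus CH. The medians ranged between 0.49 and 0.96 in CH minus NX, between -0.22 and -0.05 in REC minus NX and between -0.87 and -0.52 in REC minus CH. With the replicate number as a replicate block, the counts of higher and lower calls stayed at 11 and 1 in CH minus NX, 1 and 4 in REC minus NX and 2 and 13 in REC minus CH. Mice with the same number did not deviate together in all pairs (correlations between -0.20 and 0.44). The highest was that of replicate 1 of CH and of NX, which had the highest median signals of their groups (59.9 and 57.1). Whether arrays with the same number share more than the number was not tested.

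Signals under 16 weigh less than the 16 added before the logarithm, which touches 16 of the 31 genes on at least 1 array, and Kif20a, Nuf2 and Plk1 on 7 of 12 and Anln on 6. The arrays measure RNA of all blood cells at once, 1 time point per group was sampled, and REC mice were 14 days further on than CH mice. Each p-value sets a difference between group means against the spread between mice within groups. In the main fit that spread was pooled over the 3 groups of 4 mice, and eBayes drew it toward the spread typical of all probe sets.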
